A study of Homo sapiens with 7 samples.

Results

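Expression of 10 genes of MHC class I antigen presentation (B2M, HLA-E, HLA-F, TAP1, TAP2, TAPBP, PSMB8, PSMB9, NLRC5 and ERAP1) was examined on 7 Affymetrix arrays of Panc1 cells, a line established from a human pancreatic cancer. All probe sets that the platform annotation pairs with 1 of these symbols alone were taken, which gave 25 of the 54613 probe sets tested and 10 of 19775 genes. The S100P arm held 4 arrays of 2 single-cell clones, clone 1 and clone 5, that carried the plasmid pcDNA3.1/S100P-V5-His, in which S100P, a small calcium-binding protein, bears a V5-His tag. The vector arm held 3 arrays of single-cell clones carrying the plasmid pcDNA3.1/V5-His, 2 of clone V3 and 1 of clone V1. All cells were kept in DMEM with 10% serum and reached 70 to 80% confluence before RNA was taken, and the comparison was made to find genes regulated by S100P. The letters a and b name the arrays of a clone. The labels do not tell separate cultures from repeat arrays of a culture. The p-values between the arms therefore cover the spread among these arrays and clones and nothing wider. Those for single clones or pairs of clones cover only the spread between arrays of a clone. Some of that spread may be technical.

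Values are log2 expression levels of probe sets as deposited, and a difference of 1 is a doubling. Array medians lay between 4.51 and 4.58, and a probe set below the median of every array is called dim here. Across probe sets r was 0.996 to 0.998 between arrays of a clone. The probe set of S100P itself had a mean of 5.64 ± 0.28 in the S100P arm and 5.44 ± 0.71 in the vector arm (SD, n = 4 and 3), a fitted difference of 0.27 (SE 0.32, limma adjusted p = 0.846). S100P was therefore not detectably higher over the arms. It read 5.80 and 5.95 on clone 1 and 5.36 and 5.45 on clone 5, against 5.65 and 6.01 in V3 and 4.65 in V1. Taken singly, clone 1 was higher than the 2 vector clones at equal weight by 0.64 (limma adjusted p = 0.0164). Clone 1 was level with V3 (means 5.88 and 5.83), and clone 5 lay below V3. V1 was lower than V3, with a difference of -1.18 (limma adjusted p = 0.0104). The sources do not tell if this probe set detects the tagged transcript, and each direction given is that of the arms as labelled.

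MHC class I molecules display peptides from proteins made inside a cell to CD8+ T cells. The proteasome cuts those proteins, and interferon-gamma exchanges its standard catalytic subunits for PSMB8 (LMP7), PSMB9 (LMP2) and PSMB10, which change the peptides produced. TAP1 and TAP2 pair as the transporter that carries peptides into the endoplasmic reticulum, where ERAP1 trims them and TAPBP (tapasin) tethers the transporter to empty class I molecules. A class I molecule is a heavy chain such as HLA-E or HLA-F bound to beta-2 microglobulin (B2M), and NLRC5 is the transactivator of class I genes. Loss of these components is a known route by which tumour cells escape T cells.

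PSMB8, an inducible subunit of the proteasome, fell 1.68-fold in the S100P arm and was the only one of the 25 probe sets to pass the threshold of a limma adjusted p of 0.05. PSMB9, TAP1 and the TAP2 probe set of highest mean were 1.89-fold, 1.26-fold and 1.43-fold lower, with all S100P arrays below all vector arrays but without passing. At the probe set of highest mean the arms overlapped for the other 6 genes, the class I chains B2M, HLA-E and HLA-F among them. Of the 25 probe sets, 1 was called lower and 0 higher, and 5 had an unadjusted p under 0.05 in limma. The share of all probe sets under that unadjusted p is not given, so this count and later ones like it have no background. Among all probe sets, 0.342% were called lower and 0.776% higher. All S100P arrays lay below all vector arrays for 5 of the 25 probe sets and above them for 0, against 4.63% and 6.74% of all probe sets. Over the 25 probe sets the median difference of S100P minus vector was -0.15, and over all probe sets it was -0.00.

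**Figure D1:**
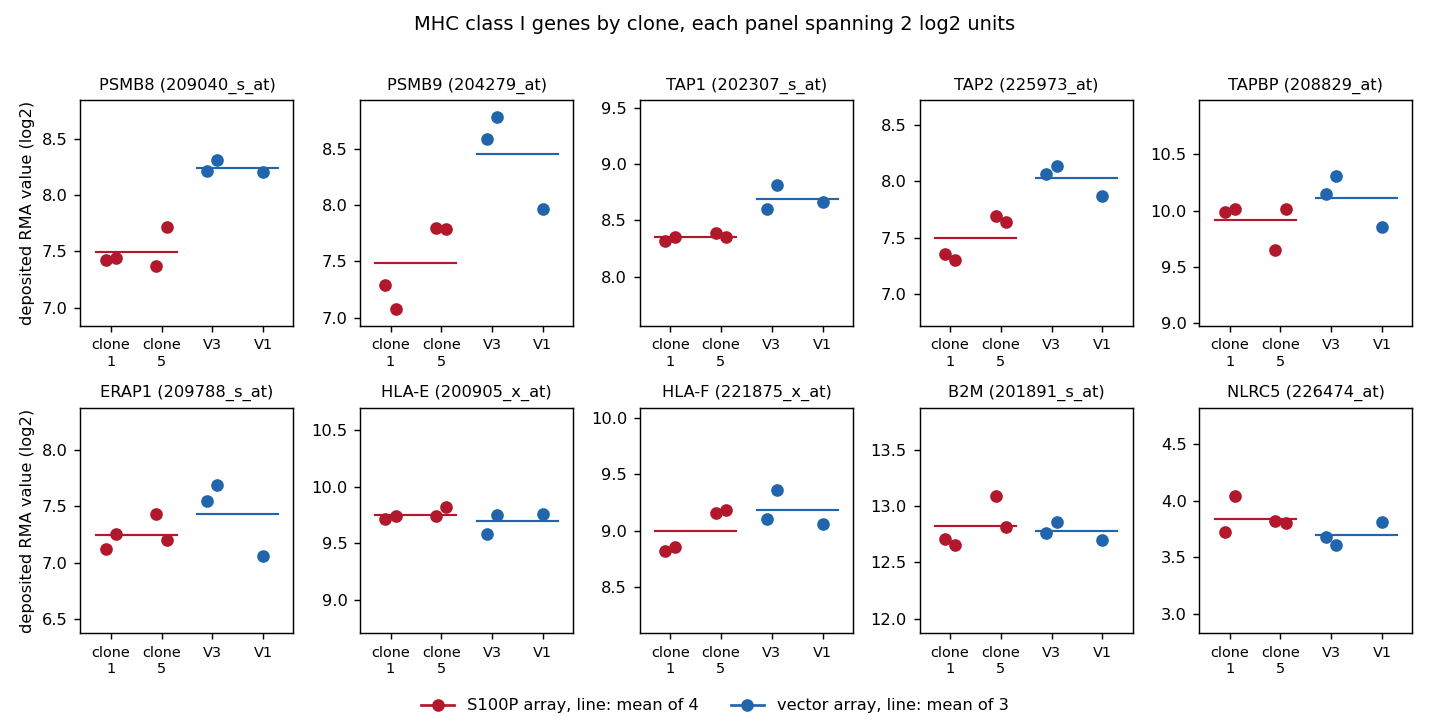
Deposited log2 values of the probe set of highest mean of each of the 10 genes, by clone, with S100P clones in red and vector clones in blue; points are arrays and lines are arm means, and each panel spans the same log2 range. For PSMB8, PSMB9, TAP1 and TAP2 all 4 S100P arrays sit below all 3 vector arrays, and for the other 6 genes the arms overlap.

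PSMB8 encodes the inducible proteasome subunit with chymotrypsin-like activity. It read 7.42 and 7.44 on the clone 1 arrays and 7.37 and 7.72 on the clone 5 arrays, against 8.21 and 8.31 in clone V3 and 8.20 in clone V1. The highest S100P array was thus lower than the lowest vector array, and within each arm the clones lay close together. Means were 7.49 ± 0.16 in the S100P arm and 8.24 ± 0.06 in the vector arm (SD, n = 4 and 3), and the fitted difference was -0.75 (SE 0.12, limma adjusted p = 0.0298). Taken singly, clone 1 differed from the vector clones by -0.80 (limma adjusted p = 0.0056), and clone 5 differed from them by -0.69 (limma adjusted p = 0.019). Both comparisons share the vector arrays. The difference between the arms ranged from -0.83 to -0.70 over 17 other settings and passed in 10 of them. It did not pass without clone 1 array b (-0.74, limma adjusted p = 0.0575), clone 5 array a (-0.70, 0.0545), V3 array a (-0.77, 0.126) or V3 array b (-0.72, 0.131). With clone means, 2 against 2, the adjusted p in limma was 0.28. The call was also lost without clone V3 and at a mean log2 value of at least 6. In the second of these the consensus correlation between arrays of a clone was 0.6384, against 0.2872 in the fit to all probe sets.

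PSMB9, the inducible subunit that replaces the caspase-like subunit PSMB6, varied more between clones. Its probe set read 7.29 and 7.08 on clone 1 and 7.80 and 7.79 on clone 5, against 8.59 and 8.78 in V3 and 7.97 in V1. From low to high the order of clones was clone 1, clone 5, V1 and V3, and the V1 array lay nearer to clone 5 than to V3. Means were 7.49 ± 0.37 in the S100P arm and 8.45 ± 0.42 in the vector arm (SD, n = 4 and 3), a fitted difference of -0.92 (SE 0.25, limma adjusted p = 0.158). The difference passed in 1 of 18 other settings, without the V1 array (-1.19, limma adjusted p = 0.0381), where the consensus correlation between arrays of a clone was 0.009, against 0.2872 in the fit to all arrays. Over the 18 settings it ran from -1.28 to -0.48, with a limma adjusted p of up to 0.658. Clone 5 rose above clone 1 by 0.62 (SE 0.11, limma adjusted p = 0.0435), and V1 was lower than V3, with a difference of -0.71 (SE 0.14, limma adjusted p = 0.0313). The neighbours clone 5 and V1 differed by 0.18 (SE 0.14, limma adjusted p = 0.575). PSMB9 was the only 1 of the 25 probe sets called in either pair of clones of one arm. The background is 0.584% of probe sets called higher and 1.6% called lower for clone 5 against clone 1, and 2.57% called higher and 3.28% called lower for V1 against V3. Leaving out any 1 of the 6 arrays other than V1 ended both calls for PSMB9, with limma adjusted p of 0.123 to 0.366 for clone 5 minus clone 1 (0.51 to 0.72) and 0.0954 to 0.122 for V1 minus V3 (-0.80 to -0.61).

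TAP1 and TAP2 together form the peptide transporter. TAP1 read 8.32 and 8.35 on clone 1 and 8.39 and 8.35 on clone 5, against 8.60 and 8.81 in V3 and 8.66 in V1. The 4 S100P arrays were nearly level and all lower than the vector arrays, and the difference between the arms was small: -0.34 (SE 0.09, limma adjusted p = 0.167). The TAP2 probe set of highest mean, 225973_at, read 7.36 and 7.30 on clone 1 and 7.69 and 7.64 on clone 5, against 8.07 and 8.14 in V3 and 7.87 in V1. It followed the same order of clones as PSMB9, though no neighbouring pair in that order passed (limma adjusted p = 0.118 to 0.362). The difference between the arms was -0.51 (SE 0.13, limma adjusted p = 0.128). This difference passed in 1 of 18 other settings, without clone 5 (-0.70, limma adjusted p = 0.0396), where the consensus correlation was -0.1226. Over the 18 settings it ran from -0.70 to -0.32, the second as the mean of the gene's probe sets, with a limma adjusted p of up to 0.605. Of the other TAP2 probe sets, 204769_s_at differed by -0.35 with overlapping arms, and 204770_at by -0.37 with all S100P arrays lower. Both had another order of clones, with V1 above V3 (7.53 against 7.37, and 6.38 against 6.31). The remaining one, 208428_at, was dim and differed by -0.04.

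Against the vector clones, clone 1 had 5 of the 25 probe sets called lower and 0 higher. These were PSMB9 at -1.15 (limma adjusted p = 8.12e-04), PSMB8, TAP2 at 225973_at (-0.66, 0.00272) and at 204769_s_at (-0.56, 0.00924), and TAPBP at 1555565_s_at (-0.60, 0.0159). Clone 5 had 2 called lower, PSMB8 and PSMB9, the second at -0.53 (limma adjusted p = 0.0291), and 0 higher. Among all probe sets, 4.58% were called lower and 8.26% higher in clone 1, and 2.38% lower and 4.36% higher in clone 5. Without clone 1 array a or b the count for clone 1 was 1, and 3 without V3 array b. Leaving out any 1 of the 4 S100P or 2 V3 arrays gave a count of 0 for clone 5 (4 to 7 at an unadjusted p under 0.05 in limma), and leaving out V1 gave 3.

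**Figure D2:**
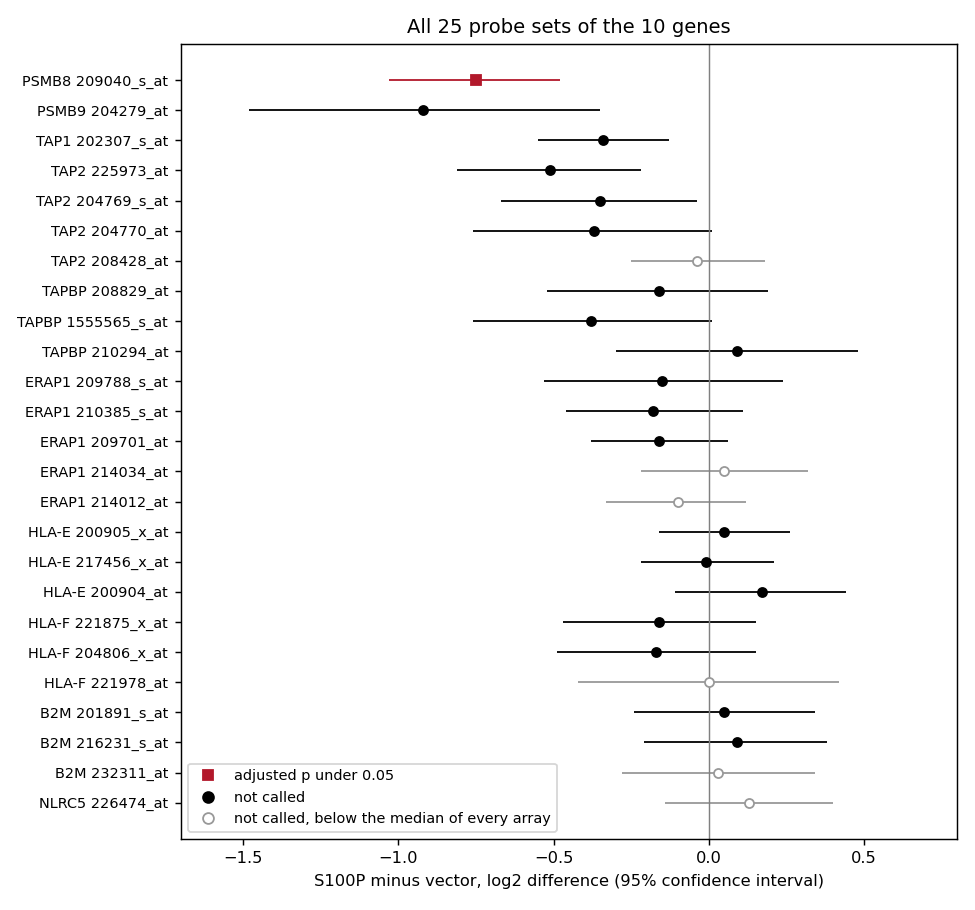
Log2 differences of S100P minus vector for all 25 probe sets, with 95% confidence intervals from the limma fit; the red square passed the adjusted threshold and open grey circles are dim probe sets. PSMB8, PSMB9, TAP1 and the TAP2 probe set 225973_at lie left of zero with their intervals, and the B2M, HLA-E and HLA-F intervals span it.

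TAP2, PSMB8, TAP1 and PSMB9 lie side by side in the class II region on the short arm of chromosome 6, in that order in the RefSeq gene table, with no other protein-coding gene between them. Their 4 differences between the arms ran from -0.92 to -0.34. Of the 10 protein-coding genes next to them, 5 on each side, 9 had a probe set, and 0 of these were called (1 at an unadjusted p under 0.05 in limma). The nearest ones were HLA-DOB, a class II modulator, at 0.02 (SE 0.12), and HLA-DMB, which loads class II molecules, at 0.18 (SE 0.13). BRD2, a chromatin reader, differed by 0.20 (SE 0.14). With arm means of 9.65 and 9.44 it was the only measured neighbour as bright as the 4 genes. HLA-DQB1, HLA-DQB2, HLA-DMB and HLA-DOA had arm means of 5.01 to 5.52, not far above the array medians. All S100P arrays lay lower for 1 of the 9, HLA-DQA1 at -0.21, against 5.51% of all genes. Of the 9, 4 were dim, HLA-DQA1 and HLA-DOB among them.

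**Figure D3:**
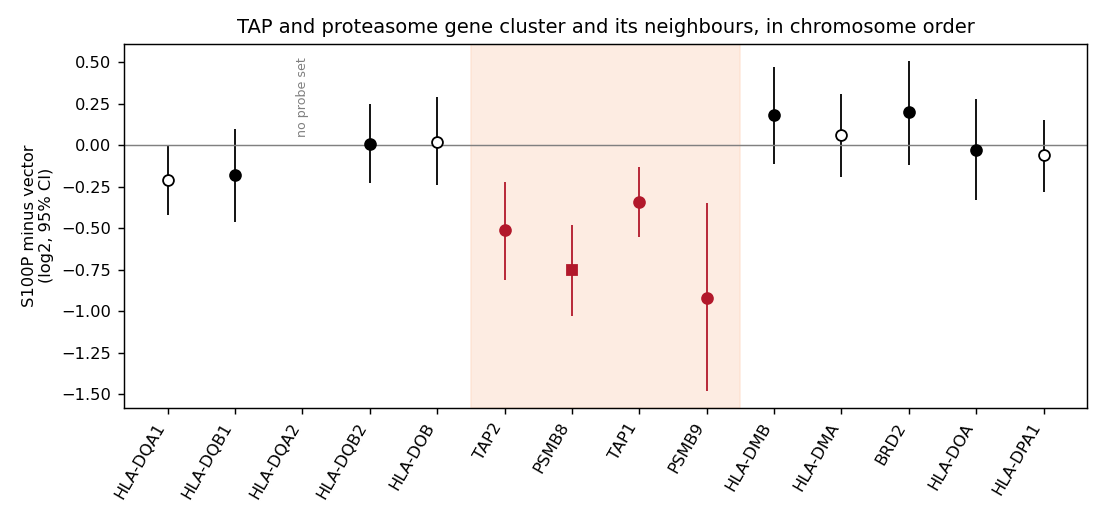
Log2 differences of S100P minus vector with 95% confidence intervals for TAP2, PSMB8, TAP1 and PSMB9 (red, shaded) and the 5 protein-coding genes on each side, in chromosome order and not to distance; the square is the called gene and open circles are dim probe sets. The 4 shaded genes lie between -0.92 and -0.34 and the 9 measured neighbours between -0.21 and 0.20.

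Promoter sequences are shown for TAP1, TAP2 and PSMB8, neighbouring genes with all S100P arrays lower, of which only PSMB8 was called. Their neighbour PSMB9 also had all S100P arrays lower, but its promoter window held neither motif searched for below and is not shown. TAPBP and B2M, which lie elsewhere and whose arms overlapped, are shown beside them. TAP1 and PSMB9 are transcribed away from each other, and their RefSeq promoter windows (250 bases before to 50 after a start, GRCh38.p14) share 13 bases. Each window was searched on both strands for GAAANNGAA, the core of the element bound by interferon regulatory factors, and for GGACTTTCC, a form of the NF-kB site. Capitals mark matches, and all sequences read 5′ to 3′ on the strand of the gene. The whole TAP1 window (chr6:32853655-32853954, minus strand) holds both motifs, and for the others 60 bases around the match are given, from TAP2 (chr6:32838764-32838823, minus strand), PSMB8 (chr6:32844017-32844076, minus strand), TAPBP (chr6:33314062-33314121, minus strand) and B2M (chr15:44711350-44711409, plus strand).
TAP1: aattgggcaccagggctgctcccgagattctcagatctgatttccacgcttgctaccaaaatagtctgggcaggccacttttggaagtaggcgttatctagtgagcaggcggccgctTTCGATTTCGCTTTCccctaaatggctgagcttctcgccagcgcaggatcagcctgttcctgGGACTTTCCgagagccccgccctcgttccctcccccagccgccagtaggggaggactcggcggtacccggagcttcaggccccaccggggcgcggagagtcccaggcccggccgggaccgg
TAP2: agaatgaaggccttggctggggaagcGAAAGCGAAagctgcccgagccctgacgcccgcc
PSMB8: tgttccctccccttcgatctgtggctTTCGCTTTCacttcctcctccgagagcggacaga
TAPBP: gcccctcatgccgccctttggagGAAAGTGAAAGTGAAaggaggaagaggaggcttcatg
B2M: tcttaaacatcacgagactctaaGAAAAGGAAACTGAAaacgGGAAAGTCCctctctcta

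Windows were listed for 8 of the 10 genes, 11 windows in all, with more than 1 start for some. GAAANNGAA was found in 7 of the 11 windows, against 8.11% of the 35116 promoter windows of the whole table. Counted by gene over any of its windows, it was found in 7 of the 8, HLA-F and ERAP1 included. The PSMB9 window did not hold these letters. The TAP1 matches lie between the TAP1 and PSMB9 starts, outside the PSMB9 window, which reaches only 250 bases before its start. GGACTTTCC was found in TAP1 and B2M and in 0.37% of all windows. The 2 motifs do not overlap in either window. GAAANNGAA was present in a window of PSMB8, which was called between the arms. It was also present in a window of TAP1, TAP2, TAPBP, B2M, HLA-F and ERAP1, which were not called. PSMB8, TAP1 and ERAP1 each had another window without it. A match describes letters and is not evidence of binding.

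TAPBP, the tapasin that edits peptides on class I molecules, gave mixed values. Its probe set of highest mean, 208829_at, read 9.99 and 10.02 on clone 1 and 9.65 and 10.02 on clone 5, against 10.15 and 10.31 in V3 and 9.86 in V1. The arms overlapped, with a difference of -0.16 (SE 0.16, limma adjusted p = 0.791). Probe set 1555565_s_at differed by -0.38 (limma adjusted p = 0.443), with clone 1 lowest at 6.79 and 6.97, and 210294_at by 0.09. ERAP1, the aminopeptidase that trims peptides to length, read 7.12 and 7.26 on clone 1 and 7.43 and 7.20 on clone 5, against 7.55 and 7.69 in V3 and 7.06 in V1. The V1 array was the lowest of the 7 and the V3 arrays the highest. The fitted difference between the arms was -0.15 (SE 0.17, limma adjusted p = 0.843), and without clone V3 it was 0.20. The difference of V1 minus V3 was -0.56 (SE 0.14, limma adjusted p = 0.0681). The other 4 ERAP1 probe sets, 2 of them dim, differed between the arms by -0.18 to 0.05.

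B2M, the invariant light chain of all class I molecules, had overlapping arms. Probe set 201891_s_at read 12.71 and 12.65 on clone 1 and 13.09 and 12.81 on clone 5, against 12.76 and 12.86 in V3 and 12.70 in V1. Clone 5 array a was the highest of the 7 and clone 1 array b the lowest, with a difference between the arms of 0.05 (95% confidence interval -0.24 to 0.34, limma adjusted p = 0.943). A second bright probe set, 216231_s_at, differed by 0.09, and 232311_at was dim.

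HLA-E, the heavy chain that presents leader peptides of other class I chains to NK cells, read 9.71 and 9.74 on clone 1 and 9.74 and 9.82 on clone 5, against 9.58 and 9.75 in V3 and 9.76 in V1. The 7 arrays lay close together with overlapping arms, and the difference was 0.05 (95% confidence interval -0.16 to 0.26, limma adjusted p = 0.916). The other HLA-E probe sets differed by -0.01 and 0.17. HLA-F, a heavy chain that can reach the surface without peptide, read 8.82 and 8.86 on clone 1 and 9.16 and 9.18 on clone 5, against 9.10 and 9.36 in V3 and 9.06 in V1. Clone 1 was the lowest and clone 5 lay among the vector arrays, with a difference between the arms of -0.16 (95% confidence interval -0.47 to 0.15, limma adjusted p = 0.748). The bright HLA-E and HLA-F probe sets with the suffix _x_at can also read other class I heavy chains, so their values may be a blend.

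NLRC5 was dim. Its 1 probe set read 3.72 and 4.04 on clone 1 and 3.82 and 3.80 on clone 5, against 3.68 and 3.61 in V3 and 3.81 in V1. The arms overlapped below the array medians, with a difference of 0.13 (SE 0.12, limma adjusted p = 0.775), and RMA can compress such differences at low levels.

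The genes whose pattern over the 7 arrays was nearest to the mean centred profile of TAP1 and PSMB9 were sought among all 19775 genes by the root mean square difference. The profile was -0.39 and -0.48 on clone 1 and -0.10 and -0.13 on clone 5, against 0.39 and 0.60 in V3 and 0.12 in V1. TAP2 ranked 5 with 0.0805 and PSMB8 ranked 96 with 0.175. Outside the 10 genes the nearest were ADGRA3, an adhesion-family receptor, with 0.0633, FAM43A with 0.0745, LPAR3, a receptor of lysophosphatidic acid, with 0.0767, POPDC3 with 0.0780 and RBM4, an RNA-binding splicing regulator, with 0.0875. Of the other members, TAP1 and PSMB9 themselves both ranked 259 with 0.218, HLA-F ranked 461, ERAP1 668, TAPBP 2370, B2M 6210, HLA-E 10053 and NLRC5 15696.

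Other genes of the pathway were read at the probe set of highest mean, where 1.03% of all genes were called higher and 0.526% lower in the S100P arm. On that measure all S100P arrays lay below all vector arrays for 4 of the 10 genes and above for 0, against 5.51% and 8.67% of all genes. Of 12 measured genes among other class I heavy chains and class I-like molecules, 1 rose and 0 fell, with a median difference of 0.20, and all S100P arrays were higher for 4. The one that rose was ULBP2, a stress ligand of the NK cell receptor NKG2D. It read 5.46 and 5.54 on clone 1 and 5.25 and 5.53 on clone 5, against 4.61 and 4.43 in V3 and 4.29 in V1. ULBP2 was 2.03-fold higher (log2 difference 1.02, SE 0.13, limma adjusted p = 0.0116), with values of 0.57 to 1.16 in other settings, and did not pass without clone 5 array b (0.98) or V3 array b (1.00), or with clone means (1.04, limma adjusted p = 0.251). The related ULBP1 differed by 0.50 (SE 0.13, limma adjusted p = 0.153), HLA-B by 0.16 and HLA-C by 0.29.

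Outside the 10 genes, the lists for peptide production, loading and class II presentation gave no call between the arms, counting by limma adjusted p. The 3 standard catalytic subunits that PSMB8, PSMB9 and PSMB10 replace had a median difference of -0.19 (1 at an unadjusted p under 0.05), with PSMB5, the counterpart of PSMB8, at -0.45 (SE 0.14, limma adjusted p = 0.226). PSMB5 read 10.18 and 10.21 on clone 1 and 9.88 and 10.08 on clone 5, against 10.32 and 10.47 in V3 and 10.75 in V1, so here too all S100P arrays were lower. The list drawn as inducible proteasome partners held 4 measured genes and was not limited to interferon-induced ones. It had a median of -0.25 (2 at an unadjusted p under 0.05 in limma). PSMB10, the third inducible subunit, differed by -0.32 (SE 0.11, limma adjusted p = 0.279), with all S100P arrays lower. PSME3, a proteasome activator, differed by -0.52 (SE 0.11, limma adjusted p = 0.0772), also with all S100P arrays lower. The other genes of this list, PSME1 and POMP, differed by -0.17 and -0.16 with overlapping arms. The 8 loading chaperones had a median of 0.09 (0 at an unadjusted p under 0.05), with HSPA5 at 0.31 and calreticulin (CALR) at -0.25. The 7 other peptidases had a median of -0.07 (1 at an unadjusted p under 0.05), with THOP1 at -0.49 and ERAP2 at -0.42. The 11 class II genes had a median of -0.06 (3 at an unadjusted p under 0.05), 6 of them dim, with CD74 at -0.60 and CTSS at -0.41.

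**Figure D4:**
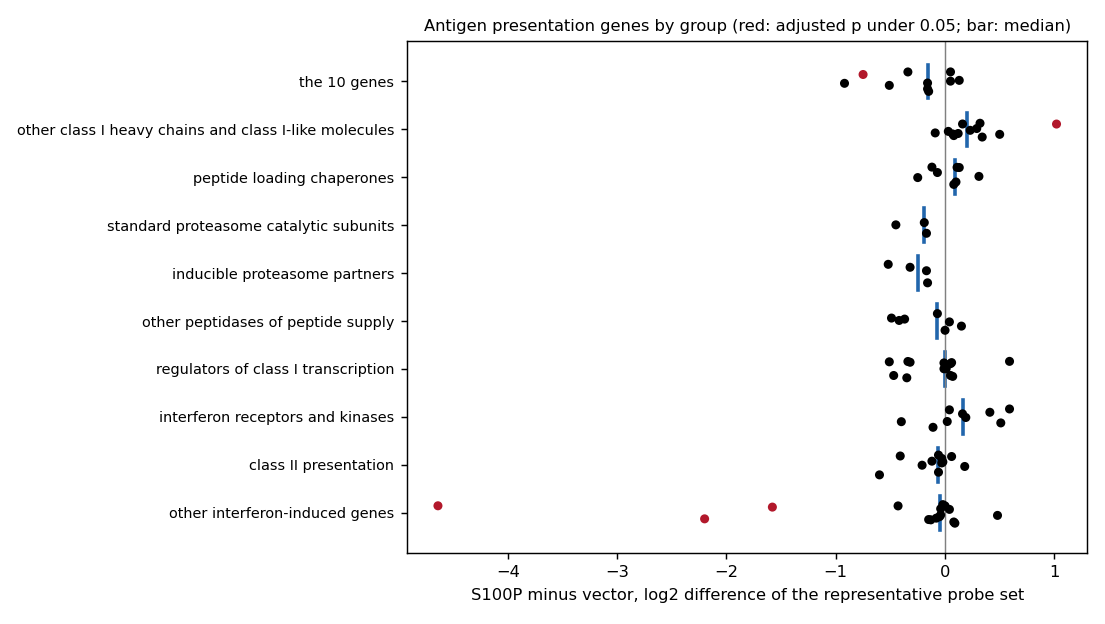
Log2 differences of S100P minus vector at the probe set of highest mean for the 10 genes and for 9 groups of related genes; points are genes, red points passed the adjusted threshold and blue bars are group medians. The group medians lie between -0.25 and 0.20, and the called genes are PSMB8, ULBP2, IFITM1, IFIT3 and IFIT1.

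Among 14 measured regulators of class I transcription 0 were called between the arms (4 at an unadjusted p under 0.05 in limma), with CREB1 at 0.59 and IRF1 at -0.51. All S100P arrays lay lower for 3 of the 14, RELA at -0.35, NFKB1 at -0.34 and RFX5 at -0.32, against 5.51% of all genes. IRF1, an interferon-induced activator of TAP1 and PSMB9, read 7.31 and 7.32 on clone 1 and 6.54 and 6.36 on clone 5, against 7.38 and 7.57 in V3 and 7.26 in V1. Only the clone 5 arrays were low, and clone 5 fell below clone 1 by a log2 difference of -0.87 (SE 0.11, limma adjusted p = 0.0136). The part of IRF1 in the TAP1 and PSMB9 values was not tested. Of 9 interferon receptors and kinases 0 were called between the arms (1 at an unadjusted p under 0.05 in limma). All S100P arrays lay higher for 3 of the 9, IFNGR1 at 0.59, JAK2 at 0.41 and IFNGR2 at 0.19, against 8.67% of all genes. IFNGR1, a chain of the interferon-gamma receptor, and the feedback inhibitor SOCS3 were called higher in clone 1 against the vector clones. Their differences were 0.96 and 1.04 (limma adjusted p = 7.25e-04 and 0.00127). In clone 5 against clone 1 IFNGR1 was lower at -0.62 (limma adjusted p = 0.0228), as was SOCS3 at -0.89 (limma adjusted p = 0.0149). IRF9, which carries STAT proteins to interferon-stimulated promoters, was lower in V1 than in V3 at -0.85 (limma adjusted p = 0.0125). IFNGR1 and SOCS3 were also lower in V1, at -0.51 and -0.77 (limma adjusted p = 0.0455 and 0.0263). Like those of PSMB9, these calls of clone 5 against clone 1, and those of V1 against V3 for IRF9, IFNGR1 and SOCS3, were lost without any 1 of the 6 arrays other than V1.

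Of 16 other interferon-induced genes 3 fell and 0 rose, with a median of -0.05, and 5 had an unadjusted p under 0.05 in limma. IFIT3, which restrains viral RNA translation with IFIT1, read 5.57 and 5.50 on clone 1 and 5.34 and 5.05 on clone 5, against 7.53 and 7.64 in V3 and 7.53 in V1. IFIT1 read 6.28 and 6.29 on clone 1 and 7.38 and 7.01 on clone 5, against 8.05 and 8.22 in V3 and 8.62 in V1. Both had arms well apart, at -2.20 (SE 0.14, limma adjusted p = 4.67e-04) and -1.58 (SE 0.29, limma adjusted p = 0.0464), and IFITM1 differed by -4.64 (limma adjusted p = 0.0047), or by -5.39 without V1 and -3.46 without clone V3. The IFIT1 call held in 9 of 18 other settings and did not pass without clone 1 array a (-1.39), clone 1 array b (-1.41), clone 5 array b (-1.59), V3 array a (-1.68), V3 array b (-1.59) or V1 (-1.39). With clone means the limma adjusted p was 0.126 for IFIT3, 0.328 for IFITM1 and 0.445 for IFIT1, so all 3 calls were lost. Of the genes not called between the arms, IFI6 was at 0.48 (limma adjusted p = 0.16) with all S100P arrays higher, and against the vector clones it was called higher in clone 1 and in clone 5 (0.45 and 0.56, limma adjusted p = 0.0483 and 0.035). MX1, an antiviral GTPase, was at -0.43 (limma adjusted p = 0.367) and was called lower in clone 5 against the vector clones (-0.58, limma adjusted p = 0.0257). ISG15 differed by 0.08, GBP2 by -0.02 and the checkpoint ligand CD274 by 0.09, and 6 of the 16 were dim. In V1 against V3 the interferon-induced conjugating enzyme UBE2L6 was lower at -1.44 (limma adjusted p = 0.0109), the proteasome activator PSME1 at -0.69 (0.0206), the loading chaperone PDIA3 at -0.57 (0.0321) and the class I-like receptor FCGRT at -1.03 (0.00675). THOP1, which degrades peptides, was higher in V1 at 0.82 (limma adjusted p = 0.0259). PSME1, PDIA3 and UBE2L6 lost this call without any 1 of the 6 arrays other than V1, and FCGRT and THOP1 lost it without a clone 1 or V3 array.

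The keratins KRT8, KRT18 and KRT19 and EPCAM, which mark epithelial cells, were bright on all 7 arrays. Like PSMB9 and TAP2, KRT8 was lowest in clone 1 and highest in V3. It read 10.63 and 10.59 on clone 1 and 11.61 and 11.92 on clone 5, against 12.30 and 12.55 in V3 and 11.68 in V1. Of 9 epithelial markers 0 were called between the arms (5 at an unadjusted p under 0.05 in limma), and their mean level, which averages markers that differed in opposite directions, ran from 8.83 to 9.15 on S100P arrays and from 8.68 to 9.23 on vector arrays. All S100P arrays were higher for CDH1, the adhesion protein E-cadherin, at 2.23 (SE 0.57, limma adjusted p = 0.133), with V1 lowest at 3.83, and for SOX9 at 0.91 (limma adjusted p = 0.0549). They were lower for KRT7 at -0.87 (limma adjusted p = 0.0667). Clone 5 was called higher than clone 1 for KRT8 (1.15, limma adjusted p = 0.011), KRT18 (0.69, 0.0157) and KRT19 (1.32, 0.00215). Leukocyte markers (10 measured, 4 dim) had mean levels of 4.05 to 4.26 on S100P arrays and 4.11 to 4.15 on vector arrays. Between the arms 0 were called (0 at an unadjusted p under 0.05 in limma). In clone 5 CD14 was called higher than in clone 1 (0.74, limma adjusted p = 0.0156). Against the vector clones CD14 and CORO1A were called higher in clone 5 (0.39 and 0.49, limma adjusted p = 0.0491 and 0.0474). PTPRC, the common leukocyte antigen, read 3.20 to 3.31 on S100P arrays and 3.05 to 3.39 on vector arrays. Fibroblast markers (9 measured) had mean levels of 4.44 to 4.65 and 4.34 to 4.45 in the S100P and vector arms. Between the arms 0 were called at the probe set of highest mean (1 at an unadjusted p under 0.05 in limma). At that probe set THY1 was called higher in V1 than in V3 (0.68, limma adjusted p = 0.0463). At other probe sets COL1A1 was higher in the S100P arm by 4.87 (1556499_s_at, limma adjusted p = 0.049) and THY1 by 0.89 and 0.86. The COL1A1 call was lost without any 1 of the 7 arrays (4.13 to 5.22), and both THY1 calls without clone 1 array b, either clone 5 array or either V3 array (0.75 to 0.94). Endothelial markers (6 measured) lay at 4.02 to 4.29 and 4.10 to 4.14, with 0 called between the arms (0 at an unadjusted p under 0.05 in limma). The part of the keratin and CDH1 patterns in the PSMB9 and TAP2 values was not tested, and in RNA of whole cultures fewer cells of a kind and less RNA per cell cannot be told apart.

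RNA quality, read as the 3' minus 5' difference of ACTB control probe sets, was 0.53 and 0.44 on clone 1 and 0.29 and 0.27 on clone 5, against 0.28 and 0.32 in V3 and 0.18 in V1 (exact two-sided permutation p = 0.257 over 35 splits). Clone 1, the lowest clone for PSMB9 and the TAP2 probe set 225973_at, thus had the highest ACTB difference. The part of that difference in the PSMB9 and TAP2 values was not tested. For GAPDH the exact two-sided permutation p was 0.771. These tests treat arrays of a clone as independent and take no account of the clones.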

How the data were processed

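The authors' deposited table holds 1 value per probe set and array made with RMA (background correction, normalization between arrays and summary of probes), per the submitters' processing notes, from biotin-labelled RNA (10 ug of total RNA) per the labels. The sources used here give neither the version of RMA nor whether it ran on all 7 arrays at once. The deposited values ran from 1.79 to 14.36, were read as log2 from that range, and were used unchanged. Detection calls were not used here, so dim genes cannot be told from absent ones, and 7 arrays limit the precision.

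Of 54675 probe sets, 62 controls were left out. The comparison of arms was fitted in R 4.3.3 with statmod 1.5.0 and limma 3.58.1, with the clone as a random block (consensus correlation 0.2872). Pairs of clones come from another limma model in which the 4 clones were the fixed effects, with 3 residual degrees of freedom, in which V1, with 1 array, is assumed to vary like the others and V1 and V3 have equal weight as the vector clones. It compares these clones, not conditions, and its p-values hold only the spread between arrays of a clone. P-values are two-sided, adjusted by Benjamini-Hochberg over 54613 probe sets at 0.05, and intervals are at 95%. An exact test over the 4 clone means cannot go below p = 0.333. The fits were tested on simulated data. Figures used matplotlib 3.10.9.

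The probe set of highest mean stands for a gene. Named genes are all probe sets of the 10 genes and genes picked per list and comparison. Picked were up to 4 called genes between arms and up to 2 between clones. Where none was called the 2 of largest difference were picked. HLA-B, HLA-C, ULBP1, ISG15, IFI6, MX1, GBP2, CD274, RELA, NFKB1, RFX5, IFNGR2, JAK2, SOX9 and the keratins were named in addition. This was done after their values were seen, as it was for non-representative probe sets. The 10 genes and the lists were chosen with earlier results of these data known. Gene order and promoter sequences come from RefSeq tables. Alternatives were clone means, no clone block, a prior trend, a mean log2 value of at least 6, median centring, repeated quantile normalization, other probe set choices, and each array or clone left out.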

Additional observations from a re-analysis of the deposited data

Results flagged for a closer look

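The TAPBP probe set 208829_at read 9.65 on clone 5 array a, far below the other S100P arrays at 9.99, 10.02 and 10.02. That gap was 0.917 of the whole range of the S100P arm, above the 95% critical value of Dixon's test for 4 samples, which chance exceeds in about 1 in 20 groups. PSMB9 differed between clones of the same arm, with clone 5 minus clone 1 at 0.62 on the log2 scale (SE 0.11, limma adjusted p = 0.0435).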

How the results depend on the processing

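Between the arms, 0 of the 25 probe sets were called by limma with clone means, with a mean log2 value of at least 6, without _x_at and _s_at probe sets (which leaves out PSMB8) and without clone V3 (4, 4, 3 and 2 at an unadjusted p under 0.05), and 3 without clone 5; leaving out 1 array gave 0 to 2. Over all probe sets the count was 8 with clone means, 301 with a mean of at least 6, 1103 without the clone block, 382 without _x_at and _s_at probe sets, 1355 without clone 5 and 1675 without clone V3, and 159 to 1708 with 1 array left out, against 611 as reported. For clone 5 minus clone 1, 4 of the 25 were called with a mean of at least 6, and 2845 of all probe sets, or 1813 after median centring; with 1 array left out these counts were 0 to 1 and 0 to 1195. For V1 minus V3, 2 of the 25 were called after median centring and 2 with a mean of at least 6, where 4930 of all probe sets were; with 1 array left out they were 0 and 0 to 909. Against the vector clones, clone 1 had 9 of the 25 called with a mean of at least 6 and 8 after repeated quantile normalization (1 to 6 with 1 array left out, and 772 to 5106 of all), and clone 5 had 4 and 4 (0 to 3, and 178 to 2292 of all). Differences near 0 changed sign. Between the arms these were B2M without clone 5 (-0.09; -0.04 to 0.10 with 1 array left out), HLA-E with 1 array left out (-0.00 to 0.08), and, without clone V3, HLA-E (-0.01), TAPBP (0.06) and ERAP1 (0.20). In clone 5 minus clone 1 TAP1 turned after median centring (-0.01), and with 1 array left out TAPBP ran from -0.36 to 0.02, PSMB8 from -0.06 to 0.29 and NLRC5 from -0.24 to 0.09. In V1 minus V3 TAP1 ran from -0.15 to 0.07. The causes were not tested.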
